A study of Mus musculus with 18 samples.

Results

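Apolipoproteins are the protein components of lipoprotein particles, and the 9 mouse apolipoprotein genes described here (Apob, Apoa1, Apoa2, Apoa4, Apoc1, Apoc3, Apoe, Apoh and Apom) were chosen by name from the GENCODE M21 annotation of the GRCm38 genome. They are 9 of 7350 annotated genes with a peak on their own strand inside an exon in at least 1 of the 18 libraries. They were not picked by a cut on any measured value, although earlier results of these data were known when they were chosen. The series profiled RNA from the liver of mouse pups, 8 to 9 days old, after an RNase protection assay with MDA5, a cytoplasmic sensor of double-stranded RNA. Each of 2 genotypes gave 3 fractions with 3 replicates each: an input that saw neither MDA5 nor RNase, an RNase-only fraction digested with an RNase A/T1 mix, and an MDA5-protected fraction digested after binding to a recombinant mouse MDA5 that lacks its CARD signaling domains. One genotype was Adar-/-; Mavs-/-, which lacks the editing enzyme ADAR1 and is called editing-deficient here, and the other was Mavs-/-, which keeps ADAR1 and stands as the wild-type in the sample titles. Neither genotype has MAVS, the signaling adaptor downstream of MDA5, so no group shows liver with intact MDA5 signaling. The double mutants came from an intercross of an Adar-deficient and a Mavs-deficient strain that was backcrossed to Bl6J.

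Apolipoproteins wrap the lipids that circulate in blood, bind the receptors that clear them and control the enzymes that act on them. The hepatocyte secretes most of them, and their mRNAs are among the most abundant of the liver. ADAR1 edits adenosines of duplex RNA into inosines, and duplexes in mRNAs often form between inverted repeats, and unedited duplexes can be bound by MDA5. RNase A and RNase T1 cut single-stranded RNA, so a peak in a digested fraction marks signal that was enriched after digestion relative to the input of the same genotype.

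The mRNA of Apob, which encodes the structural protein of very low density and low density particles, is known for another kind of editing, in which the enzyme APOBEC1 converts a cytidine to uridine and turns a glutamine codon into a stop codon. The DNA letters CAATTTGAT, which open with such a codon, were searched in the transcripts on both strands and matched Apob-202 once on the sense strand, in exon 26 of 29, at position 6666 of the mRNA. The match lay in frame at codon 2179 and starts at chr12:8008054 on the plus strand, within the 30 bases shown (chr12:8008042-8008071, GRCm38). It is shown because this site was under an input peak in 6 of 6 libraries and under no RNase-only or MDA5-protected peak. The capitals mark the glutamine codon.

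Apob codon 2179: acauacgcgauaCAAuuugaucaguauauu

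The motif was present in 278 of 21901 principal coding transcripts (1.27%) and its reverse complement in 1.11%, so the match by itself is a description of the sequence. The peak lists hold no base calls, and neither kind of editing was measured.

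Intramolecular duplexes were looked for as inverted repeats, in which a stretch of an mRNA can pair with another stretch of the same mRNA. The longest perfect pair of arms with a loop of at least 3 bases measured 16 bases in Apob, 12 in Apoa1, 11 in Apoa4, 9 in Apoa2, Apoc1, Apoe, Apoh and Apom, and 7 in Apoc3. The arms of Apob and Apoa1 are shown as the longest of the 9 genes, with the pairing bases in capitals. In Apob they lie 3103 bases apart in the mRNA, within 30-base stretches of exon 21 (chr12:8000968-8000997) and exon 26 (chr12:8007868-8007897) on the plus strand. In Apoa1 they lie 44 bases apart, within 30-base stretches of exon 3 (chr9:46229220-46229249) and exon 4 (chr9:46229811-46229840) on the plus strand.

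Apob arm 1: uaagaguUAAUGAUGAAUCUGCUaaggaca
Apob arm 2: cuuccucAGCAGAUUCAUCAUUAucugaau
Apoa1 arm 1: agagacuauGUGUCCCAGUUUgaauccucc
Apoa1 arm 2: ucuccuggaAAACUGGGACACucuggguuc

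All 4 arms were fully under input peaks in 6 of 6 libraries. Among 998 protein-coding genes with input peaks in all 6 input libraries, the median longest arm was 11 bases, and 36.8% had one of at least 12 bases. The median was 9 bases over the members, 8 of which have an mRNA of 500 to 2000 bases, and 10 bases over the 398 genes in that length class. A search for longer imperfect arms, of at least 70 bases at 70% identity or more, found none in any of the 9 mRNAs and found them in 7 of the 998 (0.701%). These shares were 1.27% (4 genes) of the 315 genes with an RNase-only exonic peak and 0.439% (3 genes) of the 683 without one. The share was 3.28% (2 genes) of the 61 with an MDA5-protected exonic peak, a group that can share genes with the others. Such counts are too few to compare. The median GC content of the members was 54.8%, against 52.0% over the 998 genes.

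None of the 9 genes had a peak in any of the 12 digested libraries, in an exon or an intron, on its own strand or the opposite one. Digested peaks were called against the input of the same genotype, so a highly expressed mRNA needed enrichment above its own input to be listed, and the lack of a peak is not a lack of reads. The members with an RNase-only peak in at least 2 libraries therefore numbered 0, as did those with an MDA5-protected peak. The RNase-only libraries held 3150 to 6094 peaks, and the MDA5-protected libraries 1180 to 2868. The genotypes could not differ in a gene with no peak, so 0 members separated them in either digested fraction, where 3.08% of 3544 genes with RNase-only peaks and 6.02% of 598 genes with MDA5-protected peaks did so. No member entered the comparison of MDA5-protected with RNase-only coverage.

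This absence was set against other genes expressed in the same livers. Of 1004 protein-coding genes with an exonic input peak in all 6 input libraries, 31.4% had an RNase-only exonic peak in at least 1 library and 6.08% an MDA5-protected one. Among the 316 of them with at least the input area per exonic kb of Apoc3, the lowest member, the shares were 21.5% and 6.65%. With mitochondrially encoded genes left out, they were 18.2% and 2.97% of 303 genes. Most abundant genes thus had no digested peak either, and the 9 apolipoproteins were in the majority. When the genes were put into 5 equal groups by input level, the RNase-only share was 40.8% in the lowest group and 18.9% in the highest group, which holds 8 of the 9 members. The MDA5-protected share did not fall in this way, at 7.96, 7.46, 3.50, 2.99 and 8.46% from the lowest group to the highest. These groups include the mitochondrially encoded genes, and several with MDA5-protected peaks, such as mt-Nd1 and mt-Co1, lie in the highest group. Shares per group without them are not given, so the 8.46% does not describe nuclear genes alone.

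**Figure D1:**
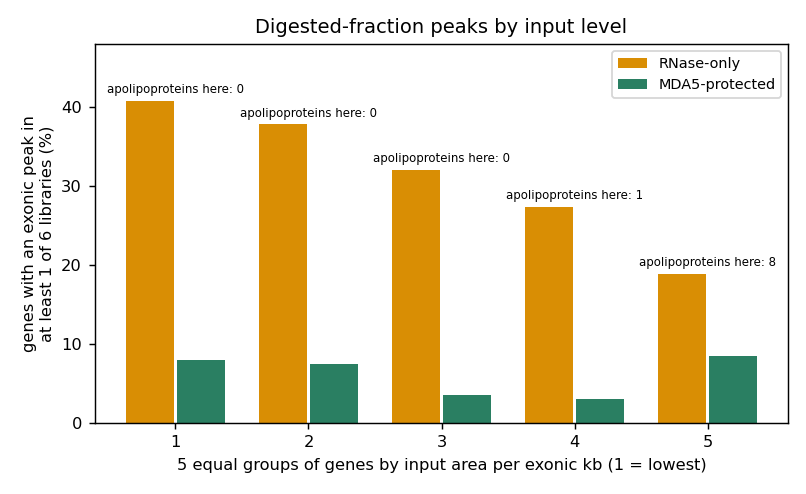
Percentage of protein-coding genes (vertical axis) with an exonic RNase-only or MDA5-protected peak in at least 1 of 6 libraries, in 5 equal groups by input area per exonic kb (horizontal axis). The RNase-only share is 40.8% in the lowest group and 18.9% in the highest, where 8 of the 9 apolipoprotein genes lie, and the MDA5-protected share is 7.96% and 8.46% in these groups. Mitochondrially encoded genes are included.

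The lack of intronic peaks was read against gene length. Apob spans 39188 bp and Apoh 71043 bp, and both were free of digested peaks on either strand. The Apoh span starts at chr11:108343354, whereas exon 1 of its principal transcript starts at 108395293. The annotated span of Apoh is thus longer than that transcript. In a comparison set of 222 genes at least as long as Apob, 57.2% had an RNase-only peak and 41.9% an MDA5-protected peak somewhere in the gene body. This set does not hold all annotated genes of that length. The digested peak nearest to any member lay 4961 bp from Apoa2, in Fcer1g, a gene of the immune receptor γ chain. Apoa1, Apoc3 and Apoa4, which are neighbors on chromosome 9, had none within 245235 bp.

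In the input all 9 genes were covered in all 6 libraries. Together they held 50 to 53 peaks per library, 20113 to 20717 exonic bases and 1.79 to 3.07% of the summed peak area. Area here is the area that Genrich assigns to a peak under its curve of significance, which grows with read depth but not in proportion to it, so a fold of area is not a fold of RNA. Input peak number differed between genotypes, with 6991, 8868 and 8948 peaks in the editing-deficient libraries and 5049, 4326 and 6625 in the Mavs-/- libraries. Hepatocyte markers were present, with input peaks in all 6 libraries for the 9 of 10 listed genes found in the annotation. By median-scaled area none of these 9 separated the genotypes. Over the 1319 genes with input area in all 6 libraries, 16.0% were higher and 24.7% lower without overlap. Without scaling 3 of the 9 were higher in the editing-deficient libraries, beside 38.1% of the 1319 genes. Of 6 enterocyte markers, which mark another source of Apob and Apoa4, none had an input peak, although Vil1 and Cdh17 had RNase-only peaks. RNA and residual DNA cannot be told apart as the source of such peaks in these lists.

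Apob was the most completely covered member. The gene lies on the plus strand at chr12:7977648-8016835 and its 29 exons form an mRNA of 13934 bases. Input peaks covered 99.3, 99.1 and 99.5% of the exonic bases in the editing-deficient replicates 1, 2 and 3, and 98.8, 99.8 and 99.3% in Mavs-/-. The values of both genotypes overlapped within 1 percentage point. Of the 29 exons 28 were touched in all 6 libraries and 25 were covered end to end. A single stretch of 11438 bases was covered in every input library, with exon 26 of 7467 bases inside it, and none of it was under a digested peak.

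**Figure D2:**
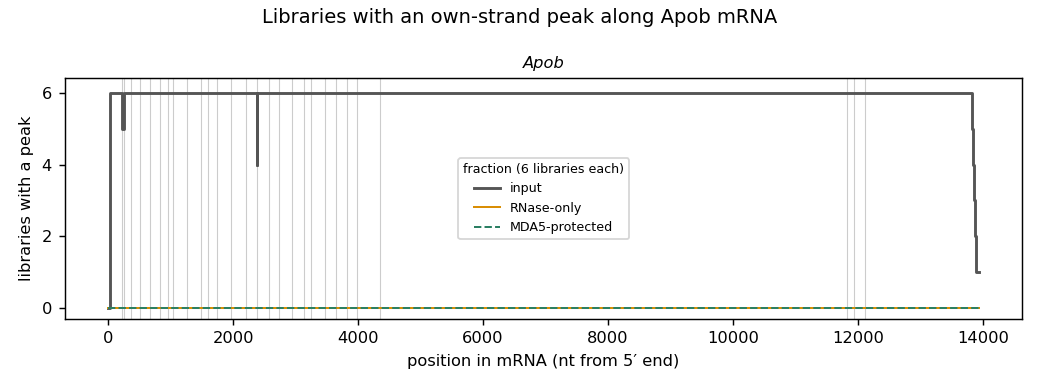
Number of libraries out of 6 per fraction (vertical axis) with an own-strand peak at each base of the Apob mRNA (horizontal axis, bases from the 5′ end), with exon borders in gray. Input peaks cover 98.6% of the mRNA in all 6 libraries, and the RNase-only and MDA5-protected lines stay at 0.

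Apoa1 and Apoa2 encode the main proteins of high density particles. Apoa1 (chr9:46228580-46230466, plus strand) was covered over 80.3, 71.0 and 91.9% of its exonic bases in the editing-deficient libraries and 98.8, 79.6 and 93.5% in Mavs-/-. Its coding sequence was covered in full in all 6 libraries, and outside it 10.8 to 100% of the 5′ UTR and 77.6 to 98.5% of the 3′ UTR were covered. Apoa2 (chr1:171225054-171226379, plus strand) was steady, with 82.5, 84.5 and 82.3% against 82.5, 82.7 and 81.8%. Its coding sequence too was covered in full, and its first exon, a 68-base stretch of 5′ UTR, was under no input peak.

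Apoa4 (chr9:46240696-46243459, plus strand) encodes a protein of chylomicrons and high density particles whose liver expression is known to follow the metabolic state. Its covered share was 79.3, 91.7 and 79.3% in the editing-deficient libraries and 61.0, 91.1 and 71.0% in Mavs-/-, which overlapped. The third exon of 1181 bases was touched in all 6 libraries, whereas the first exon was untouched in 2 of them. Its peak area was the most variable of the members, as described with the genotypes.

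Apoc1 and Apoc3 encode small proteins that slow the clearance of triglyceride-rich particles, and Apoc3 also inhibits lipoprotein lipase. Apoc1 (chr7:19689481-19692660, minus strand) was covered over 87.6, 80.1 and 80.1% in the editing-deficient libraries and 75.9, 83.9 and 60.6% in Mavs-/-. Its coding sequence was covered in full in every library. Apoc3 (chr9:46232933-46235636, minus strand) was the least covered by share of annotated exonic bases, with 37.4, 52.8 and 24.5% against 36.8, 37.2 and 40.4%. These bases number 1014, against 526 in its principal mRNA. Of that mRNA 47.1% was covered in all 6 input libraries, more than the 40.0% of the Apom mRNA. The first 2 exons of Apoc3, of 41 and 68 bases, were under no input peak. The highest and the lowest exonic share of Apoc3 both came from editing-deficient livers.

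Apoe (chr7:19696109-19699188, minus strand) encodes the ligand through which remnant particles bind the LDL receptor. It was covered over 56.2, 60.9 and 67.7% in the editing-deficient libraries and 64.5, 54.5 and 55.5% in Mavs-/-. Its coding sequence was covered in full in each library, but 11.4% of the 5′ UTR and 40.1 to 40.9% of the 3′ UTR were. Apoh, which encodes β2-glycoprotein I, a plasma protein that binds anionic phospholipids, lies on the plus strand at chr11:108343354-108414396 and was covered over 49.8, 45.8 and 50.3% against 49.9, 50.3 and 47.4%. Its first 3 exons, 389 bases that include the start of the coding sequence, were under no input peak in any library, and exons 4 to 7 were covered end to end in all 6. The coding sequence of Apoh was therefore covered to 67.3% in every library.

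Apom (chr17:35128997-35132050, minus strand) encodes the carrier of sphingosine-1-phosphate on high density particles. It was covered over 77.0, 72.8 and 73.9% in the editing-deficient libraries and 70.4, 53.4 and 57.7% in Mavs-/-. It was the only member whose covered share did not overlap between genotypes, at 74.6 ± 2.19% against 60.5 ± 8.84% (SD, n = 3 each), a difference of 14.1 percentage points with a standard error of 5.26. The exact two-sided permutation test gave p = 0.10, the smallest that 3 against 3 libraries allow. Of 5274 genes, 16.5% were higher without overlap in the editing-deficient libraries and 3.01% were lower, so 1 of 9 is near that background. The genotypes overlapped for Apom once equal numbers of peaks were taken per library, when the difference was 2.01 percentage points.

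**Figure D3:**
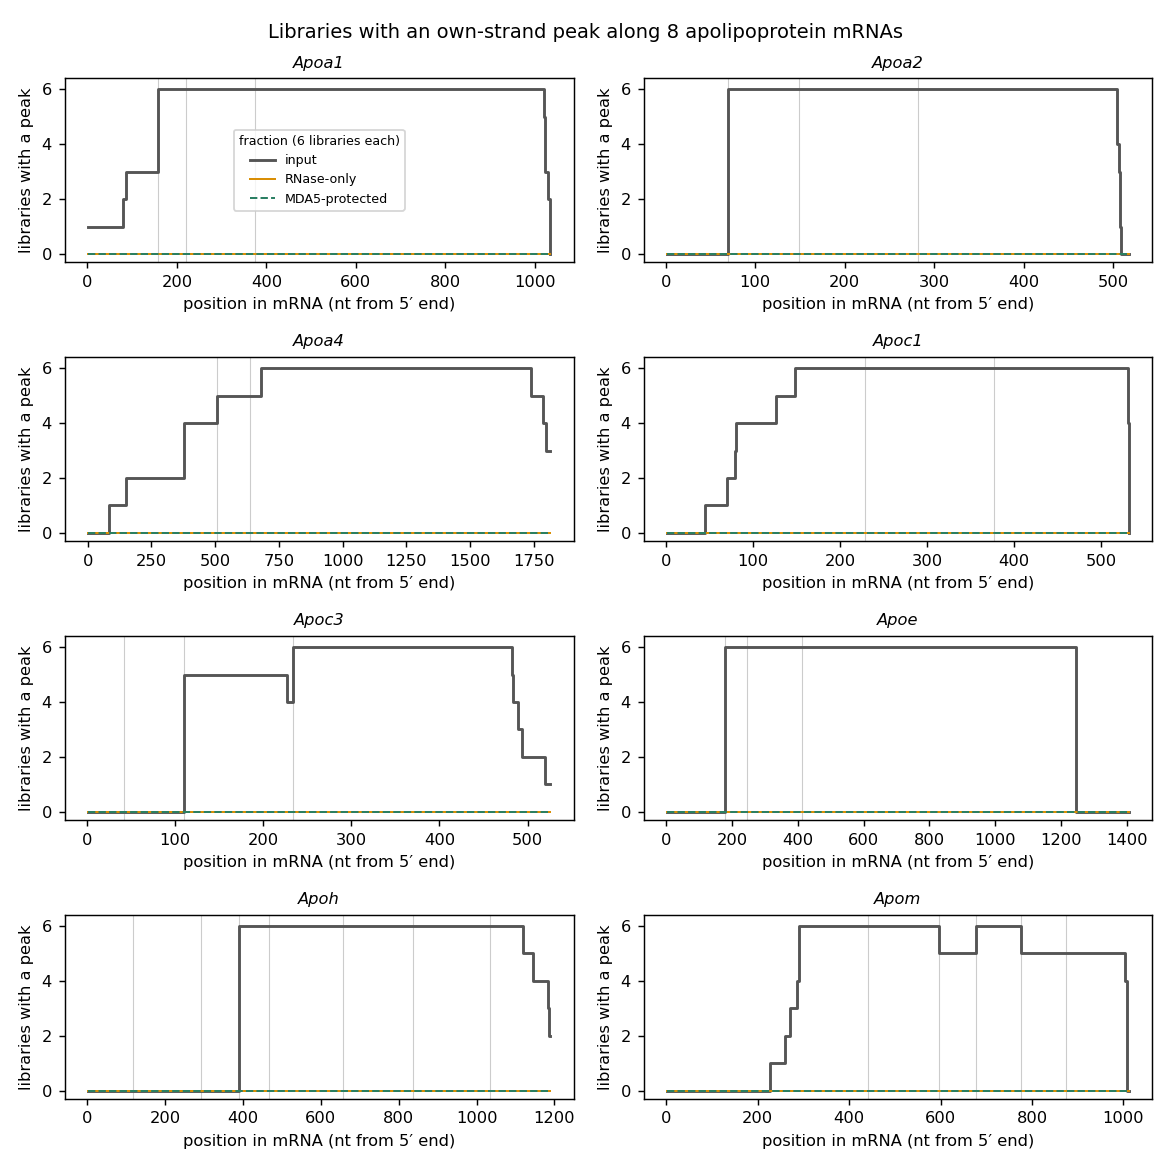
Number of libraries out of 6 per fraction (vertical axis) with an own-strand peak at each base of 8 mRNAs (horizontal axis, bases from the 5′ end), with exon borders in gray. Input lines rise to 6 after a 5′ end that is covered in fewer libraries, in none over the first 389 bases of Apoh and in 1 to 3 over the first exon of Apoa1, and both digested lines stay at 0.

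The incomplete coverage followed a shared pattern along the exons. Of the 65 exons of the 9 principal transcripts, 50 were touched by an input peak in all 6 libraries and 38 were covered end to end in all 6. The 7 exons under no input peak had a median length of 97 bases, against 155.5 among those covered in full and 157 over all 65. They lay at the 5′ end of Apoa2, Apoc3, Apoe and Apoh. Of the peak ends of the members, 56.4% lay within 5 bases of an annotated exon border, from 22.7% in Apoa1 to 63.6% in Apom. Some peaks ran into introns, and in Apob 1009 to 2382 intronic bases were covered per library.

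Levels were compared between genes as input area per exonic kb. The kb are those of all annotated exons, which exceed the principal mRNA in some genes only. They were 1014 against 526 bases in Apoc3 and 2138 against 1408 in Apoe, but 13934 in both for Apob. Orders and ranks by this measure thus depend partly on the annotated exons, and none per kb of mRNA was made. The order by the mean over the 6 input libraries was Apoa1 (10909), Apoe (9189), Apoa2 (8862), Apob (8063), Apoa4 (7619), Apoc1 (5855), Apoh (4453), Apom (4231) and Apoc3 (1602). Their standard deviations ran from 364 for Apoh to 4639 for Apoa4. Apoa4 took its place from genotypes that differed, as it was first of the 9 in the editing-deficient libraries (11458 ± 2852, SD, n = 3) and 7th in the Mavs-/- libraries (3780 ± 1207, SD, n = 3). Over the 6 libraries only Apoc1 and Apoh, and Apom and Apoc3, did not overlap as neighbors in that order. Apoa1 ranked 2nd to 17th among the genes with input peaks of each library, and Apoc3 254th to 800th.

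The genotypes were compared by the input area in exons, as log2 area minus the library's median over the 1319 genes with input area in all 6 libraries. Apoa4 was the member that stood apart. Its area was 14826, 24030 and 23531 in the editing-deficient libraries and 4903, 6453 and 9227 in Mavs-/-, with no overlap. On the median-scaled log2 scale it was 2.90 ± 0.31 against 1.74 ± 0.32 (SD, n = 3 each), a difference of 1.16 with a standard error of 0.26 (exact two-sided permutation p = 0.10). That difference ranked 82nd from the highest of 1319 genes, and without scaling it was 1.61.

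The height of the Apoa4 peaks moved in the same direction as their area, which is taken under the same curve of significance, so it is no separate support. The strongest −log10 p within Apoa4 was 29.8, 30.6 and 33.5 in the editing-deficient libraries and 14.5, 14.5 and 17.7 in Mavs-/-. By this unscaled measure 7 of the 9 members were higher without overlap. The share of all genes higher by this measure is not given, so the count says nothing about the members as a group. By area per exonic kb Apoa4 ranked 17th, 3rd and 3rd in the former and 148th, 108th and 77th in the latter. Of its neighbors on chromosome 9, Apoa1 measured 2.34, 2.05 and 2.58 against 2.82, 2.84 and 2.55 in median-scaled log2 area, and Apoc3 −0.57, −0.34 and −1.68 against −0.57, 0.00 and −0.35, and both overlapped between genotypes. The remaining gene of that cluster, Apoa5, is no member and was looked at after its values were seen. It encodes an activator of lipoprotein lipase and lies at chr9:46268633-46271919. Its area was 12860, 16641 and 14301 in the editing-deficient libraries and 7510, 5907 and 11406 in Mavs-/-, and its median-scaled log2 difference was 0.41 with a standard error of 0.16 (exact two-sided permutation p = 0.10). Like Apoa4 it was higher without overlap under all 3 scalings.

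Of the remaining members, 4 were lower in the editing-deficient libraries without overlap on the median-scaled log2 scale. Apoa2, at 0.64, 0.69 and 0.85 against 1.34, 1.35 and 1.27, differed by −0.59 with a standard error of 0.07. The differences were −0.37 for Apob, −0.36 for Apoc1 and −0.29 for Apoh, with standard errors of 0.15, 0.13 and 0.13, and each exact two-sided permutation p was 0.10. These 3 directions turned without scaling, to 0.09, 0.10 and 0.16, and that of Apoa2 stayed negative in area at −0.14 but overlapped. Relative to Alb all 4 stayed negative and overlapped between genotypes. That scale rests on 1 gene, whose area was uneven between libraries. Apoa5 in editing-deficient replicates 1, 2 and 3 was −0.12, −1.06 and −1.08 relative to Alb, but 2.33, 2.51 and 2.39 with median scaling. An overlap relative to Alb can therefore rest on replicate 1. Without scaling 4 members (Apoa4, Apoe, Apoh and Apom) were higher without overlap and 0 were lower. With median scaling Apoa1, Apoc3, Apoe and Apom overlapped. The area of Apom overlapped only after scaling, since its unscaled area was 4751, 5281 and 5187 against 3499, 3137 and 3859.

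The direction of such calls depended on the scaling over all genes as well. With median scaling 16.0% of 1319 genes were higher and 24.7% lower without overlap, so that 39.3% of calls were higher, and this share was 82.3% without scaling and 78.6% relative to Alb. The median gene was 0.41 higher in log2 area in the editing-deficient libraries before scaling. Apoa4 was higher under all 3 scalings. Against the background of 16.0%, 1 of 9 members higher, and against 24.7%, 4 of 9 lower, say little about the members as a group. The number of hepatocytes, the RNA per hepatocyte and the scaling cannot be told apart as sources of the members' differences in these bulk samples. The p-values measure only the spread between the 3 livers or RNA samples of a genotype, described as biological replicates.

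Markers of other cells were set beside these area differences. All 4 erythroid markers with input area in all 6 libraries, of 6 listed, were lower in the editing-deficient libraries, by a median of −1.09 on the scaled log2 scale and −0.64 unscaled. The summed area of the erythroid list was 14524 to 22961 in those libraries and 27897 to 35133 in Mavs-/-. Its part in the differences of the apolipoprotein genes was not tested. Of 7 macrophage markers 1 was higher, 1 lower and 4 overlapped, and the 9 hepatocyte markers had a median of −0.20 scaled and 0.26 unscaled.

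**Figure D4:**
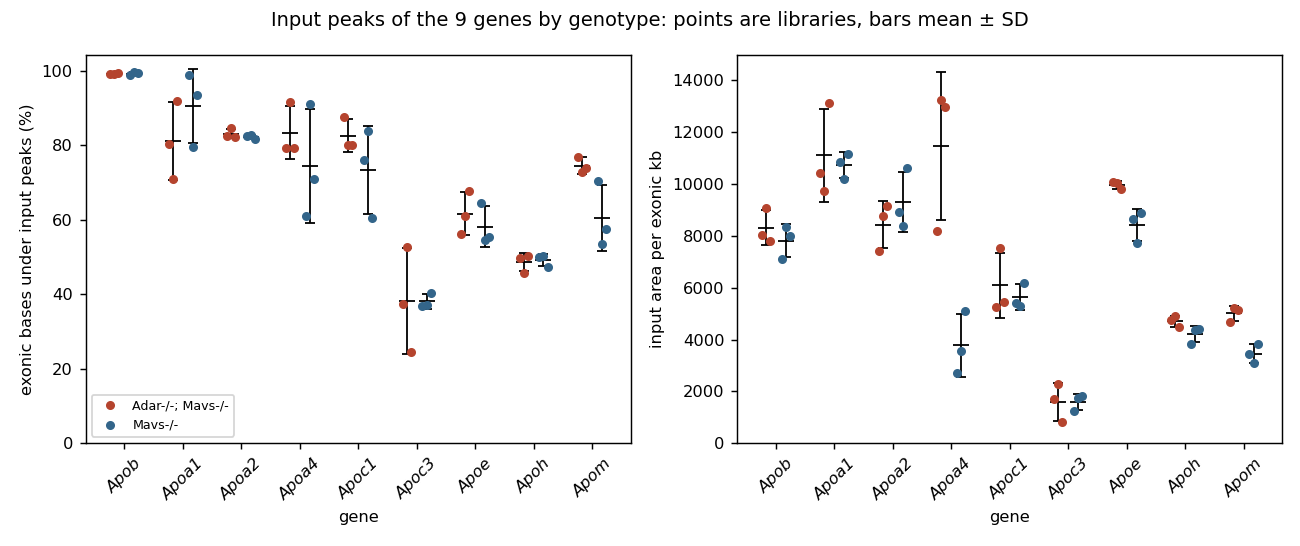
Share of exonic bases under input peaks (left, percent) and input area per exonic kb (right) for each of the 9 genes on the horizontal axis, with points for libraries and bars for the mean ± SD of 3 per genotype. Apoa4 area is higher in every Adar-/-; Mavs-/- library than in any Mavs-/- library, and Apom differs in covered share.

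A wider list of 41 lipoprotein genes other than the 9 members showed which relatives did appear after digestion. Of these, 33 had an exonic input peak in any library and 20 in all 6, 8 had an RNase-only exonic peak in any library and 3 in at least 2, and 2 had an MDA5-protected one in at least 2. By median-scaled area in the input 5 of the 20 were higher, 4 lower and 11 overlapped between genotypes, beside 16.0% higher and 24.7% lower over all 1319 genes. The median log2 difference over the 20 was 0.10 scaled and 0.56 unscaled. Without scaling 9 were higher and 1 lower, beside 38.1% higher and 8.19% lower over the 1319 genes.

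Saa1, an acute-phase apolipoprotein of high density particles, had RNase-only and MDA5-protected exonic peaks in 6 of 6 libraries each and no input peak. It covered 3392 exonic bases summed over the RNase-only libraries and 1780 over the MDA5-protected ones. Saa1 has a near-identical neighbor in Saa2, so the assignment of its reads is uncertain. Apobec1, the enzyme of the Apob edit shown above, covered 2190 exonic bases in the RNase-only libraries and Sort1, a sorting receptor for apolipoprotein B, 1822, both with no MDA5-protected peak. Apobec1 had no exonic input peak, and Sort1 had one in 2 of 6 libraries. As for Vil1 and Cdh17, RNA and residual DNA cannot be told apart as the source of such peaks. Lpl, the lipase that Apoc3 inhibits, had MDA5-protected exonic peaks in 2 libraries, 237 bases in all, which did not overlap each other. They lay at chr8:68905594-68905684 in editing-deficient replicate 3 and chr8:68905273-68905418 in Mavs-/- replicate 2. The latter overlapped an RNase-only peak of Mavs-/- replicate 2 (chr8:68905268-68905417), so that position was also enriched without MDA5.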

How the data were processed

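RNA was measured in 18 libraries, 3 per genotype and fraction. Per the methods of the study, 100 mg of liver was extracted, rRNA was depleted, and directional libraries were read as 75 bp single ends. Reads were trimmed (Trim Galore 0.6.6), aligned to GRCm38 (NextGenMap 0.5.5) and called as peaks per library and strand (Genrich 0.6.1, adjusted p at most 0.01, area of at least 500, gap of at most 20 bp). The digested libraries were called against the input of their genotype, and the input without a control. An RNA abundant in the input must therefore be enriched above it to give a digested peak, and no peak does not mean no reads. Peak calling, tool names and versions come from the submitters' notes and methods.

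The authors deposited peak lists in which the area under the significance curve is a signal, the −log10 p and adjusted p are given per peak, and a score is capped (the capped score was not used). No read counts were in these lists, so the depth behind each value is unknown and no counting interval is given. Peaks were intersected with the union of own-strand exons of each gene (GENCODE M21) in Python 3.11.15 with pandas 2.3.3, and area was shared evenly along each peak. Differences between genotypes used exact two-sided permutation tests over libraries (scipy 1.17.1), and a gene was called when the 3 libraries of one genotype lay wholly above or below the others. Inverted repeats were searched with exact matches and with blastn 2.17.0 (word size 11). The coverage and calling steps were tested on simulated data.

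The 9 members and the marker and lipoprotein lists were chosen with earlier results of these data known. All members were to be named, with the lipoprotein genes of most exonic bases covered. A planned search for genes most like the member with most RNase-only coverage was not run, since all 9 members were at 0. Same-numbered RNase-only and MDA5-protected libraries deviated together within each genotype (correlations of 0.18 to 0.63 across genes), while same-numbered input libraries of the genotypes did not. Alternatives covered the exon model, strand, area minimum, number of peaks, left-out libraries and a replicate block. The area comparisons and those of Apoa5 were added after seeing the data.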

Additional observations from a re-analysis of the deposited data

Results flagged for a closer look

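In 4 of 6 input libraries Apoa1 had a peak on the strand opposite to the gene, and in 2 of 6 Apoe had one, both outside the own-strand comparisons. Over Apoa1 the opposite peaks were in editing-deficient replicate 2 and in all 3 Mavs-/- replicates, and held 2.97 to 10.6% of the area of the own-strand peaks that they overlapped. Over Apoe they were in Mavs-/- replicates 1 and 3, with 4.80 to 16.6%. No annotated gene lies on that strand at either place, and none of these positions had a digested peak. The source of the opposite-strand signal was not tested.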

How the results depend on the processing

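No member had a digested peak under any alternative that was run, including the count of peaks on either strand and over whole genes. The mean share of exonic bases covered in the input, 71.0% over the 9 genes, was 77.5% over the longest coding transcript, 61.2% with an area of at least 1000, and 38.6% with introns counted, and 70.6 to 71.7% when 1 library was left out. The number of members whose covered share did not overlap between genotypes, 1 as reported, was 3 with an area of at least 1000, 0 with equal numbers of peaks, 0 over whole genes, 0 by number of peaks, and 1 to 4 when 1 library was left out, with 4 without Mavs-/- replicate 2 and 2 without Mavs-/- replicate 1. The same replicate numbers do not pair the input libraries of the genotypes (correlations of 0.00, −0.02 and −0.06), and with the number as a replicate block 3 members had the same sign in all 3 pairs. The counts under these alternatives stand without the share over all genes at the same setting, so they say nothing about the members as a group.

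Some differences in covered share changed sign. With an area of at least 1000 that of Apob became 1.11 and that of Apoh 3.28 percentage points, over whole genes they became 1.93 for Apob, 6.47 for Apoa1, −0.12 for Apoc3 and 0.087 for Apoh, and over the longest coding transcript −0.13 for Apoa2. With 1 library left out they ran from −0.27 to 0.22 for Apob, −7.22 to 6.94 for Apoc3 and −1.47 to 0.83 for Apoh. In log2 area the unscaled differences were 0.089 for Apob, 0.040 for Apoa1, 0.10 for Apoc1, 0.25 for Apoe and 0.16 for Apoh. The unscaled strongest −log10 p gave 0.046 for Apob, 0.10 for Apoa1, 0.11 for Apoa2, 0.13 for Apoc1, 0.21 for Apoe and 0.14 for Apoh, and equal numbers of peaks gave −0.056 for Apom. The Apoa4 difference ran from 0.98 to 1.34 with 1 library left out. Of the other differences of single genes under an alternative, 148 kept direction and overlap while 14 came to separate the genotypes and 10 ceased to. The members lower in area without overlap, 4 with median scaling, numbered 0 without scaling, 0 relative to Alb and 1 with equal numbers of peaks, and those higher, 1 with median scaling, numbered 4 without scaling, 7 by unscaled strongest −log10 p, and 2 without editing-deficient replicate 2 or Mavs-/- replicate 1. Over all 1319 genes 38.1% were higher and 8.19% lower without scaling, and 13.1% and 3.56% relative to Alb. No such share is given for the other alternatives. Causes of these shifts were not tested.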
